A study of Mus musculus with 24 samples.

Results

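miR-31, miR-203 and miR-375 are 3 microRNAs (miRNAs) best known from epithelia and from pancreatic islets, and they were followed here across mouse bone marrow and 3 mouse tumour lines. Their assays were chosen by name, as mmu-miR-31, mmu-miR-203 and mmu-miR-375, which gives 3 of the 584 miRNA assays measured. The choice was made with their values in these samples known, so their levels and differences are given as a description and without a test.

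Small RNA was quantified by reverse transcription and quantitative PCR on TaqMan low density arrays, microfluidic cards on which each well holds the primers and probe of 1 assay. The readout is the threshold cycle (Ct), the PCR cycle at which fluorescence crosses a threshold, so that a lower Ct means more RNA and 1 cycle stands for about a 2-fold difference. CT-BM stands for primary mouse bone marrow, obtained by flushing femur and tibia, although its growth entry also describes subcultured suspension cells. L-1210 is a lymphocytic leukaemia line and M1 a myeloid leukaemia line, both grown in suspension. PYS is a teratocarcinoma line of adherent, epithelial-like cells. The 3 lines were collected at passage 3, and no treatment was given to any group. Each group had 3 replicates, each run on card A and card B. Each line is a single established line, and mouse strain and age are not given in the sources used here. No source says that the replicates came from separate cultures or animals, so errors and p-values here cover only the differences among these samples, possibly technical ones.

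As background, a miRNA is cut from a hairpin precursor, and 1 strand of the hairpin's stem, the guide, is loaded into an Argonaute protein and pairs through its seed (bases 2 to 8) with target mRNAs. The other strand, written with a star in the older names on these cards, is usually present at a lower level. miR-31 is abundant in skin and other epithelia and is often altered in carcinomas. miR-203 accumulates as keratinocytes leave the basal layer of the epidermis, where it represses the stem cell factor p63. miR-375 is abundant in pancreatic beta cells, where it restrains insulin secretion, and is also found in the gut and pituitary. None of the 3 is a classical marker of blood cells.

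The mature strands are shown because the assays are specific to a strand. The sequences are those of RefSeq on mouse assembly GRCm38.p6, 5′ to 3′, with the seed in capitals. The assays named miR-31, miR-31* and miR-203 correspond to miR-31-5p, miR-31-3p and miR-203-3p in current names. The assay named miR-375 corresponds to miR-375-3p, which was missing from the RefSeq sequences used. Its sequence is therefore not shown and its seed was not compared, and the miR-375 strand below is the opposite one.
mmu-miR-31-5p: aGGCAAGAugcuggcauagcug
mmu-miR-31-3p: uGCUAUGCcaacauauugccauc
mmu-miR-203-3p: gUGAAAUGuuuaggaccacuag
mmu-miR-203-5p: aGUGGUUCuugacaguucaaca
mmu-miR-375-5p: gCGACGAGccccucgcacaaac
Each of these 5 strands had a seed shared by 0 other mature names among the 1679 in the RefSeq table.

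The 3 hairpins lie on different chromosomes and are shown to place the strands within them. Capitals here mark the mature strands in the table. Mir31 lies at chr4:88910557-88910662 on the minus strand, within the long noncoding RNA gene Gm49890 and between the protein-coding genes Ifne and Mtap. Mir203 lies at chr12:112130880-112130955 on the plus strand, overlaps the miRNA gene Gm51289 and sits between Aspg and Kif26a. Mir375 lies at chr1:74900658-74900721 on the minus strand, between Cryba2, which encodes a lens crystallin, and Cfap65.
Mir31: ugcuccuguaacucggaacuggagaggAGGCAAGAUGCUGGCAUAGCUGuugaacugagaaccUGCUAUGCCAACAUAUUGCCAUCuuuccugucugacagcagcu
Mir203: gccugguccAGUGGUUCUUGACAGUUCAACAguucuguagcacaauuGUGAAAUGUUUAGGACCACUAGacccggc
Mir375: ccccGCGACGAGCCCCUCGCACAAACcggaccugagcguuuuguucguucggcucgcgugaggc
The Mir375 hairpin, at 64 bases with 67.2% G and C, was shorter and richer in G and C than those of Mir31 (106 bases, 50%) and Mir203 (76 bases, 48.7%).

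Levels were set against 3 endogenous small RNAs, MammU6, snoRNA135 and snoRNA202, as the negative delta Ct (mean control Ct minus assay Ct, a log2 scale). A Ct over 35 or an undetermined well was counted as not detected, which gives an upper limit on the level. The controls themselves moved between groups, and their mean Ct on card A was 12.5 in M1, 13.8 in L-1210, 13.9 in PYS and 14.8 in CT-BM. Other references moved the median difference of all assays tested by -1.65 to 1.87 in L-1210 minus CT-BM, by -0.44 to 2.15 in M1 minus CT-BM and by -0.92 to 1.76 in PYS minus CT-BM. Values under the other references are therefore given for each miRNA. The group labels were checked against marker miRNAs. All 3 granulocyte and blood-wide markers (miR-223, miR-142-3p and miR-142-5p) were detected in CT-BM, L-1210 and M1. In PYS miR-142-5p was not detected and the others came up at mean Ct 31.35 and 31.99. The granulocyte marker miR-223 came up late in L-1210, at mean Ct 26.15 against 13.48 in CT-BM. The lymphocyte marker miR-150 did not single out the lymphocytic line, with its lowest level in L-1210 (-12.52), below PYS (-11.16) and M1 (-7.47). All 5 embryonic stem cell markers were detected in PYS at mean Ct 15.7 to 20.2. In every replicate with a well, 2 of the 5 were also detected in CT-BM, 2 in L-1210 and 1 in M1. The earliest of these was miR-294 in CT-BM, at mean Ct 28.0. Both erythroid markers and all 4 stromal markers were detected in CT-BM.

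**Figure D1:**
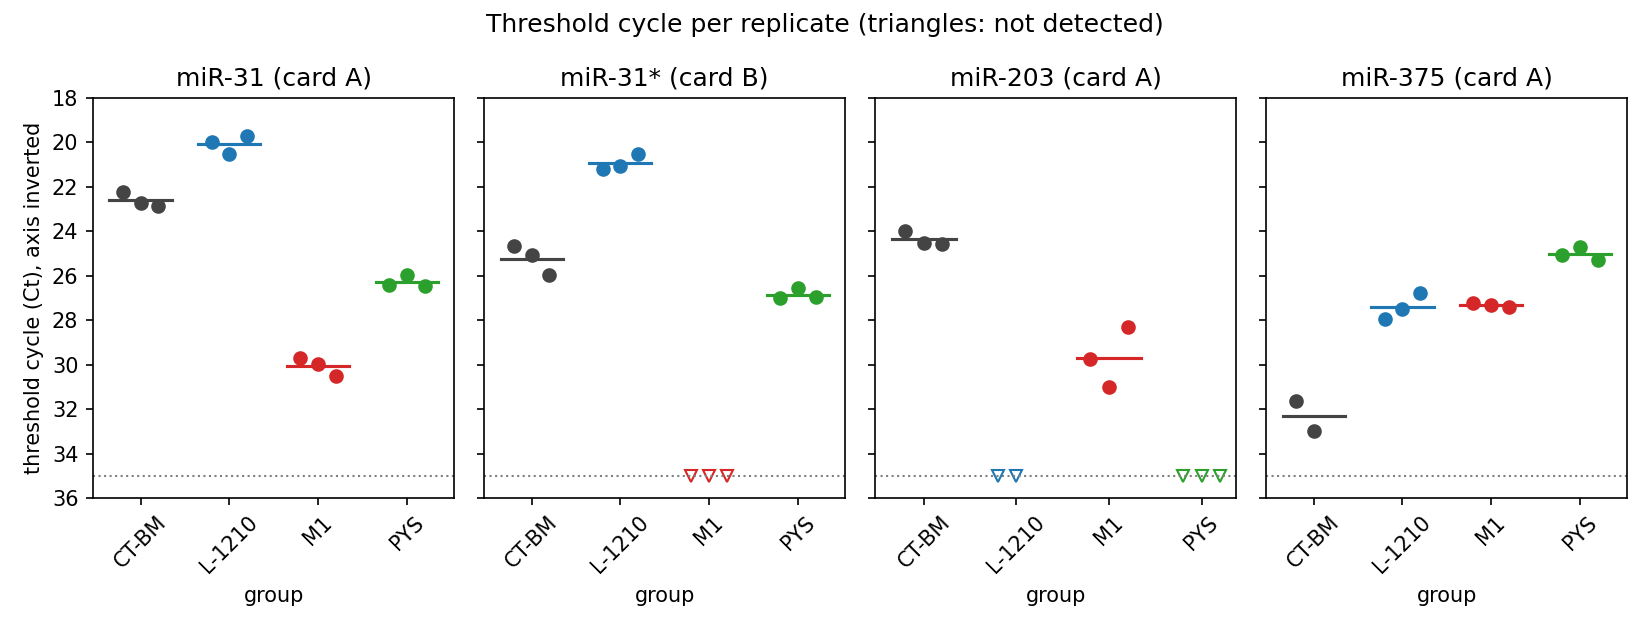
Threshold cycle of each replicate for miR-31, miR-203 and miR-375 in the 4 groups, with higher levels toward the top; triangles at the limit of 35 cycles stand for undetermined wells. miR-31 came up earliest in L-1210, miR-203 in CT-BM and miR-375 in PYS.

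miR-31 was highest in L-1210 and CT-BM and lowest in M1. In CT-BM its Ct was 22.2, 22.7 and 22.9 in replicates 1 to 3. In L-1210 it was 20.0, 20.5 and 19.7. In M1 it was 29.68, 29.98 and 30.49. In PYS it was 26.4, 26.0 and 26.5. The 4 groups did not overlap, and miR-31 was detected in every replicate. Its level was -6.26 ± 0.12 in L-1210, -7.80 ± 0.16 in CT-BM, -12.41 ± 0.15 in PYS and -17.60 ± 0.70 in M1 (negative delta Ct, mean ± SD, n = 3 each). The lymphocytic and the myeloid leukaemia line thus stood at the opposite ends of the miR-31 range, with bone marrow and the teratocarcinoma line between them.

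On the log2 scale miR-31 was 1.54 ± 0.30 higher in L-1210 than in CT-BM (2.92-fold, difference ± SE). It was lower in M1 by -9.80 ± 0.30 (889-fold) and in PYS by -4.61 ± 0.30 (24.4-fold). Between the lines, L-1210 exceeded M1 2592-fold and PYS 71.2-fold, and PYS exceeded M1 36.4-fold. The last of these was 0.94 on the log2 scale after quantile normalization, under 2-fold, and 3.77 to 6.51 under the 6 remaining references. Among all assays tested, 57 of 333 had a higher difference in L-1210 minus CT-BM than miR-31, and 45 of 325 had a lower one in M1 minus CT-BM. The lower levels in M1 and PYS held under each of the 7 other references, from -10.11 to -6.18 in M1 and from -5.53 to -3.10 in PYS. The difference between the neighbours L-1210 and CT-BM ranged from -0.091 with snoRNA202 alone to 3.29 with MammU6 alone, so the order of these groups rested on the reference.

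The opposite strand, miR-31*, gave a measurement of the same hairpin that the choice did not use, from separate wells on card B. Its Ct was 24.6, 25.0 and 26.0 in CT-BM. In L-1210 it was 21.2, 21.0 and 20.5. In PYS it was 27.0, 26.5 and 27.0. In M1 all 3 replicates were undetermined. miR-31* followed the same order as miR-31, L-1210 above CT-BM above PYS above M1, under the 3 controls and under each of the 7 other references. Its level was -8.29 ± 0.08 in L-1210, -11.06 ± 0.21 in CT-BM and -13.92 ± 0.27 in PYS (n = 3 each), and at most -22.66 in M1.

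In limma's moderated test with Benjamini-Hochberg adjustment, miR-31* was 6.83-fold higher in L-1210 than in CT-BM (log2 2.77 ± 0.23, adjusted p = 1.30e-07). It was at least 3101-fold lower in M1 (adjusted p = 7.69e-14). All 3 M1 values were set at the Ct limit, so their SD of 0.33 is that of the card B controls. The p-value for M1 therefore holds no measured spread of miR-31* in that line. In PYS miR-31* was 7.28-fold lower (log2 -2.86 ± 0.23, adjusted p = 7.54e-08). With MammU6 as the only reference the PYS difference was -0.84, under the 2-fold minimum. L-1210 exceeded PYS by 49.7-fold (limma adjusted p = 4.91e-11). The replicates of the groups compared did not overlap, which for M1 follows from values set at the Ct limit. The share of all assays without overlap is not given. Calls were common, at 68.5% of assays tested in L-1210 and 78.7% in PYS against CT-BM. The 2 strands come from the same RNA samples and the same hairpin, so the agreement of their order is not that of independent samples.

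The gap between the guide and the star strand also differed between groups. Because it contains the miR-31 values, it is described without a test. miR-31 exceeded miR-31* on the negative delta Ct scale by 3.12, 3.35 and 3.30 in the CT-BM replicates. In L-1210 the gap was 2.11, 1.99 and 1.98. In PYS it was 1.21, 1.32 and 2.00. The CT-BM values lay above all those of L-1210 and PYS, which overlapped each other. In M1 the star strand was not detected, so the gap has only a lower bound, at least 5.63, 4.74 and 4.81 with the Ct limit of 35. These bounds lay above the CT-BM gaps, but with a limit of 32 they were 2.63, 1.74 and 1.81, below them. The mean gap was smaller than in CT-BM by 1.23 in L-1210 and by 1.75 in PYS. Under the 7 other references this change ranged from -1.75 to -0.17 in L-1210 and from -2.26 to -0.78 in PYS. The gap compares wells of 2 assays on 2 cards whose amplification efficiencies may differ, so only its change between groups is described.

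**Figure D2:**
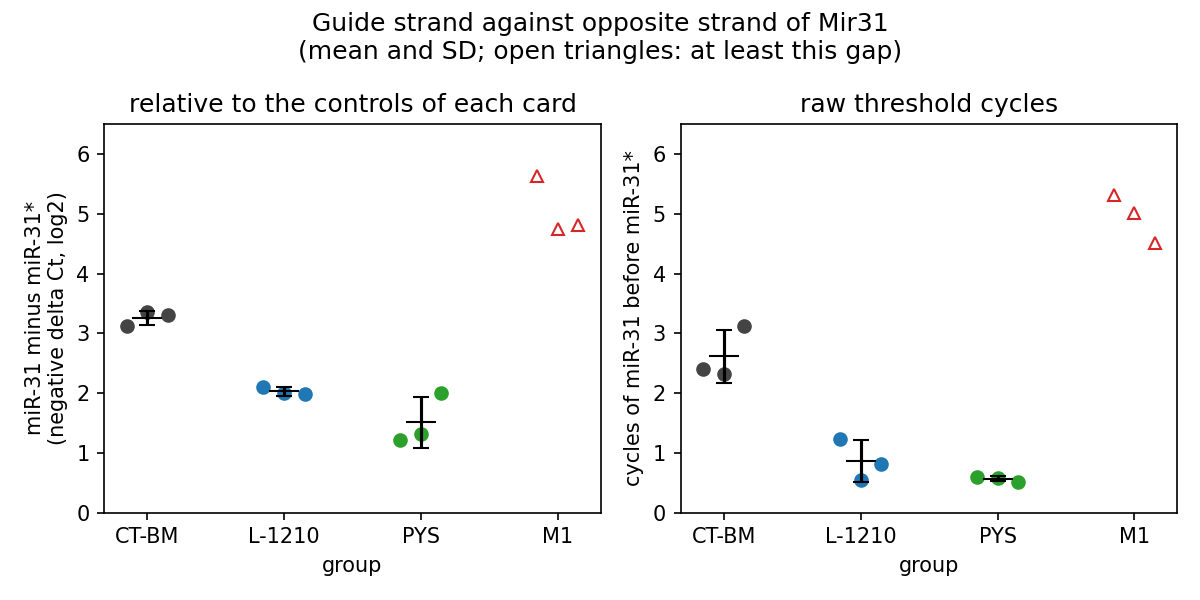
Gap between miR-31 and miR-31* by replicate in the 4 groups, as the difference of the negative delta Ct (log2) and as the raw difference in cycles, with the mean and SD; open triangles for M1 are lower bounds, because miR-31* was not detected there. The CT-BM replicates, at 3.12 to 3.35 on the log2 scale, lie above those of L-1210 and PYS and below the M1 bounds.

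miR-203 was highest in bone marrow, far lower in M1 and not detected in the other lines. In CT-BM its Ct was 24.0, 24.5 and 24.5. In M1 it was 29.74, 31.01 and 28.31, the widest spread among replicates of the 3 miRNAs. In PYS all 3 replicates were undetermined. In L-1210 replicates 1 and 2 were undetermined and the table holds no well for replicate 3, so the fit used 2 L-1210 replicates. The level was -9.54 ± 0.13 in CT-BM and -17.23 ± 1.38 in M1 (n = 3 each). It was at most -20.95 in L-1210 and at most -21.13 in PYS.

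On the log2 scale miR-203 was lower in M1 than in CT-BM by -7.70 ± 0.53, a 207-fold difference. Without M1 replicate 2 this was -6.94 and without M1 replicate 3 it was -8.29. miR-203 was at least 2729.8-fold lower in L-1210 and at least 3091-fold lower in PYS than in CT-BM. On the log2 scale these bounds were -11.41 and -11.59, and they ranged from -13.01 to -9.84 in L-1210 and from -12.51 to -10.09 in PYS over the 7 other references. With a Ct limit of 32 they were -8.41 and -8.59. Taken at the Ct limit, the PYS minus CT-BM difference of miR-203 had 14 of 362 assays below it. Among assays not detected in PYS, this rank reflects their CT-BM levels and the limit. M1 exceeded L-1210 at least 13.2-fold and PYS at least 14.9-fold. These bounds moved with M1 replicates 2 and 3. The log2 difference of L-1210 from M1 was -4.48 without replicate 2 and -3.13 without replicate 3, and that of PYS from M1 was -4.66 and -3.31. With a Ct limit of 32 in place of 35 these differences were -0.72 and -0.90, under 2-fold. L-1210 and PYS, both without detection, were not compared. Over the 7 other references the difference of M1 from CT-BM ranged from -8.01 to -4.11, and CT-BM stayed above M1.

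With the 3 controls, CT-BM also held the markers of other bone marrow cells that the lines lacked or had at lower levels. The summed level of the 4 stromal markers was -6.29 to -5.70 (log2) in CT-BM, against -10.99 to -10.57 in L-1210, -11.54 to -10.44 in M1 and -13.49 to -12.87 in PYS. The L-1210 sum came from miR-199a-3p alone. The summed level of the 2 erythroid markers was -5.96 to -5.80 in CT-BM, and in L-1210 both were not detected. In M1 erythroid signal was present in 1 replicate at -22.72, and PYS had -13.74 to -13.26, all from miR-451. The endothelial marker miR-126-3p was at -1.91 to -1.75 in CT-BM and between -5.39 and -4.35 in the lines. The lymphocyte marker miR-150 was at -1.82 to -1.61 in CT-BM, -7.51 to -7.40 in M1, -11.46 to -11.00 in PYS and -12.90 to -12.15 in L-1210. Values under other references are not given for these markers. In raw mean Ct, M1 was close to CT-BM for miR-199a-3p (23.37 against 23.75) and miR-126-3p (16.98 against 16.62). It was later for miR-145 (26.42 against 21.23) and miR-150 (19.92 against 16.56), and miR-143 and miR-214 were not detected in M1. The part of these cell types in the miR-203 result, and in the miR-31 level of CT-BM, was not tested. In such bulk RNA, fewer cells of a type and less RNA per cell cannot be told apart.

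miR-375 showed the reverse, with its lowest level in bone marrow and its highest in the teratocarcinoma line. In CT-BM its Ct was 31.6 and 33.0 in replicates 1 and 2, and the table holds no well for replicate 3. In L-1210 it was 27.9, 27.5 and 26.8. In M1 it was 27.2, 27.3 and 27.4. In PYS it was 25.1, 24.7 and 25.3. Every replicate with a well was detected, and both CT-BM values were later than all those of the lines. The level was -11.15 ± 0.09 in PYS, -13.60 ± 0.46 in L-1210 and -14.85 ± 0.42 in M1 (n = 3 each), and -17.51 ± 0.57 in CT-BM (n = 2).

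With 2 CT-BM replicates in the fit, miR-375 was 3.91 ± 0.35 higher in L-1210 than in CT-BM on the log2 scale (15.1-fold). It was 2.66 ± 0.35 higher in M1 (6.31-fold) and 6.36 ± 0.35 higher in PYS (81.9-fold). Higher differences than that of miR-375 were found for 32 of 333 assays in L-1210, 28 of 325 in M1 and 46 of 362 in PYS. PYS exceeded L-1210 5.43-fold and M1 13.0-fold. The positive differences from CT-BM held under each of the 7 other references, from 2.35 to 6.83 in L-1210, 2.41 to 7.27 in M1 and 5.56 to 8.59 in PYS.

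L-1210 and M1 were neighbours in the order of miR-375 levels, and their order was not settled. With the 3 controls L-1210 was 1.26 ± 0.31 higher (2.39-fold). Their Ct values overlapped before any reference was applied, and the difference turned negative with snoRNA202 alone (-0.060), quantile normalization (-0.44) and no reference (-0.10). PYS was first and CT-BM last under each of these settings.

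**Figure D3:**
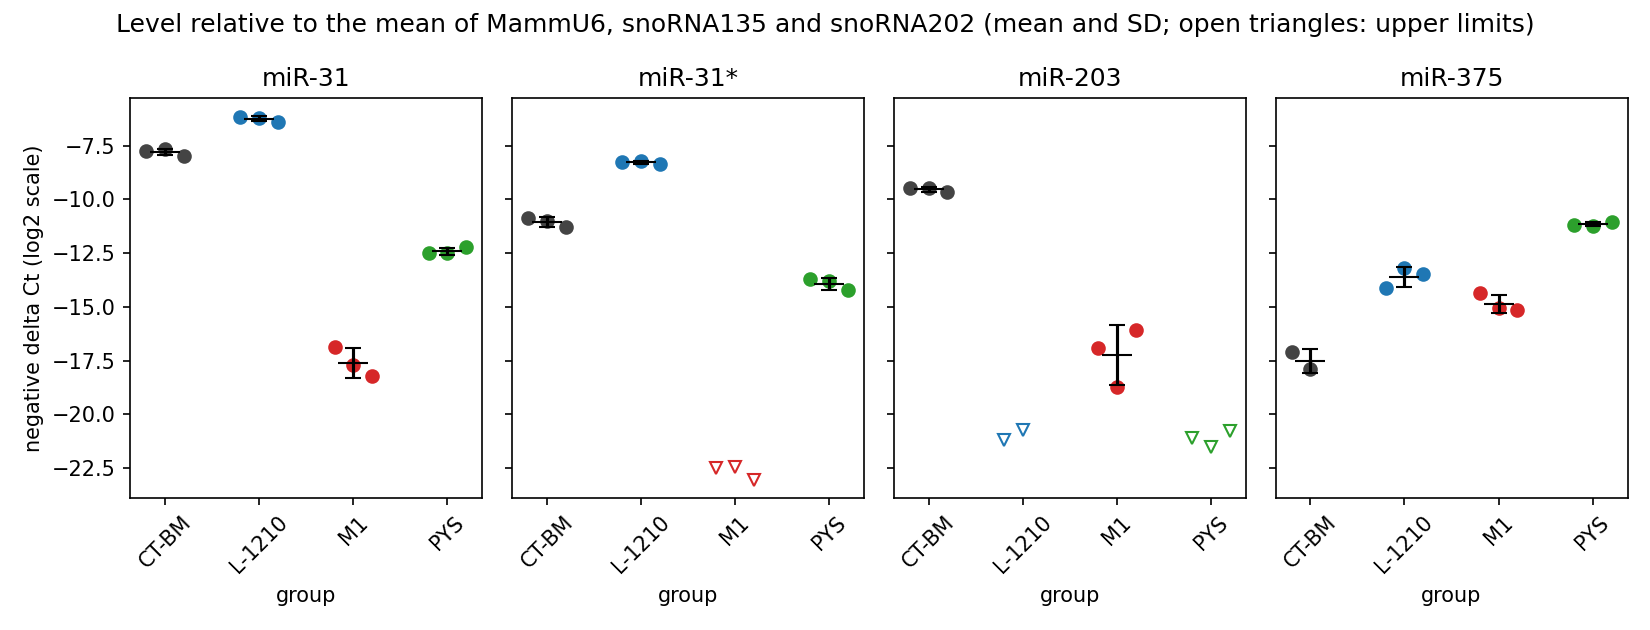
Negative delta Ct (log2, against MammU6, snoRNA135 and snoRNA202) of each replicate for miR-31, miR-31*, miR-203 and miR-375, with the mean and SD of each group; open downward triangles are upper limits for wells without detection. miR-31 and miR-31* fall in the same order of groups, while miR-203 peaks in CT-BM and miR-375 in PYS.

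With the 3 controls the 3 miRNAs peaked in 3 different groups. L-1210 had the highest miR-31 and no detected miR-203, although with snoRNA202 alone the miR-31 level of CT-BM was above it (difference -0.091). M1 had the lowest miR-31, some miR-203 and a middle level of miR-375. PYS, the only line described as epithelial-like, had the highest miR-375, but its miR-31 was below that of bone marrow and its miR-203 was not detected. CT-BM had the highest miR-203, the lowest miR-375 and, with the 3 controls, the second miR-31 level.

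All 3 assays passed the detection filter against CT-BM, and by the same rule used for all assays (adjusted p under 0.05 and at least 2-fold) all 3 were called in each line. In L-1210, 2 were higher and 1 lower, where 68.5% of 333 assays were called, 22.5% higher and 45.9% lower. In M1, 1 was higher and 2 lower, where 69.5% of 325 were called, 25.2% higher and 44.3% lower. In PYS, 1 was higher and 2 lower, where 78.7% of 362 were called, 40.1% higher and 38.7% lower. In L-1210 against M1, 2 were higher and 1 lower (56.2% of 304 assays called, 25.3% higher and 30.9% lower). In PYS against M1, 2 were higher and 1 lower (73.5% of 340 called, 46.2% higher and 27.4% lower). In PYS against L-1210, 1 of the 2 tested was higher and 1 lower (73.9% of 349 called, 46.1% higher and 27.8% lower). The members were chosen on these contrasts, and nothing is read from their counts. The comparisons of the lines with CT-BM share its replicates. The split of all calls moved with the reference. In L-1210 it was 75 higher and 153 lower with the 3 controls, 164 and 93 with MammU6 alone and 42 and 241 with snoRNA202 alone. In M1 it was 82 and 144 with the 3 controls, 53 and 163 with snoRNA202 alone and 180 and 94 with no reference. In PYS it was 145 and 140 with the 3 controls, 205 and 104 with MammU6 alone and 104 and 171 with snoRNA135 alone.

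**Figure D4:**
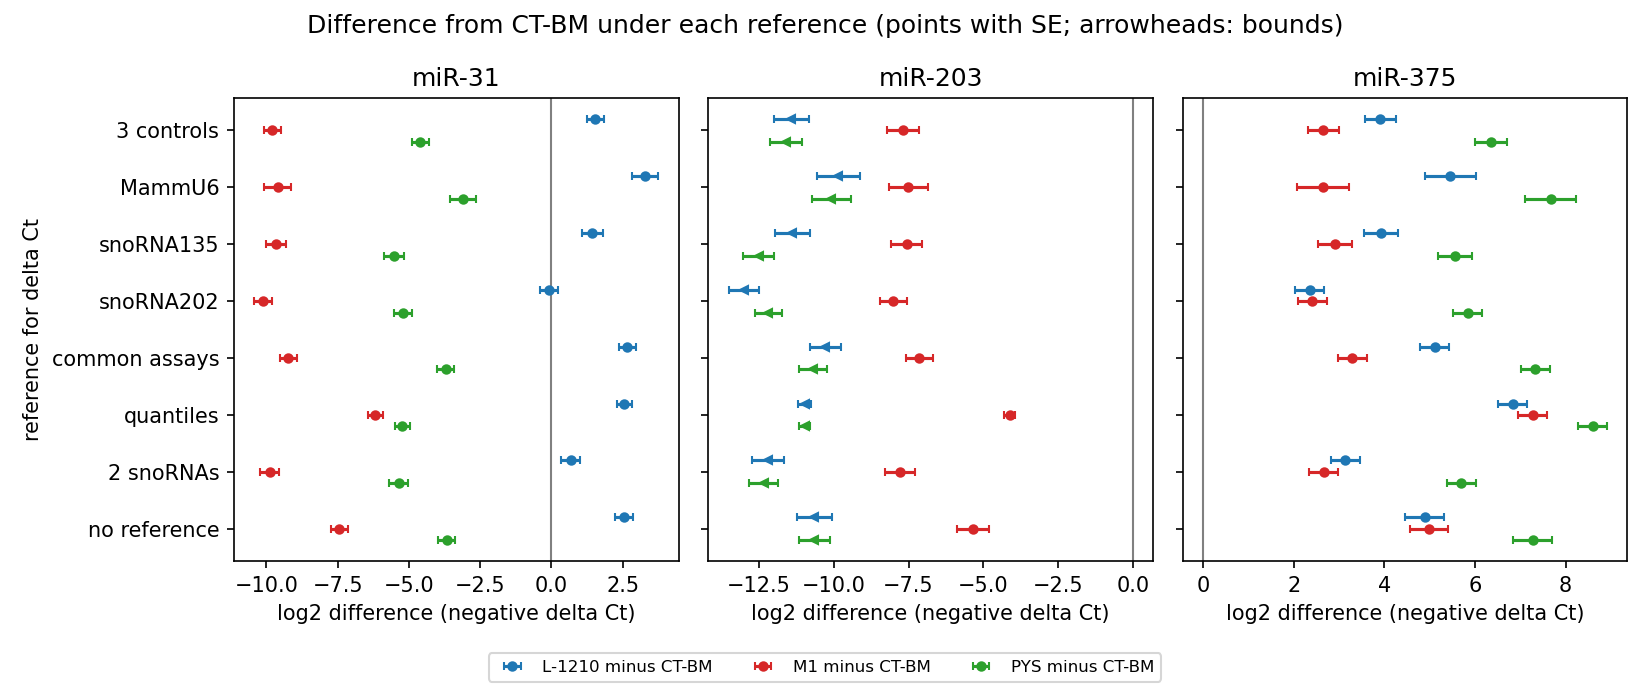
Log2 difference from CT-BM (± SE) of miR-31, miR-203 and miR-375 in each line under the 3 controls and 7 other references; the arrowheads for miR-203 in L-1210 and PYS are bounds, since it was not detected there. The difference of miR-31 in L-1210 is the only one that crosses 0, at -0.091 with snoRNA202 alone.

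Other miRNAs known from epithelia did not share 1 pattern with miR-31 or miR-203. The list held 9 assays: miR-200a, miR-200b, miR-200c, miR-141 and miR-429 of the miR-200 family, which represses the Zeb factors of epithelial-mesenchymal transition, miR-205, and the miR-183, miR-96 and miR-182 cluster of sensory epithelia. In PYS, 4 of 9 were higher than in CT-BM, 3 lower and 2 not called, where 40.1% of all assays were called higher and 38.7% lower. The median log2 difference of the list was 0.95 against 0.08 for all assays. This list and the islet list below were chosen with earlier results of these data known, and the assays named by the size of limma's moderated t. Their p-values are therefore descriptive. miR-182 was 743-fold higher in PYS (limma adjusted p = 1.76e-11). miR-183 was at least 1651-fold and miR-96 at least 212-fold higher, since neither was detected in bone marrow or in the leukaemia lines. Both entered the PYS count and median only through their detection in PYS. On the log2 scale the others ran 9.54 (miR-182), 1.38 (miR-200a), 0.95 (miR-429), -0.45 (miR-200b), -1.61 (miR-205), -4.06 (miR-200c) and -7.45 (miR-141, a bound). Their middle value, -0.45, lay below the 0.08 of all assays. miR-200c was 16.7-fold lower in PYS (limma adjusted p = 4.57e-09), and miR-141 was at least 174-fold lower over the 2 PYS replicates with a well. The split in PYS was 5 higher and 2 lower with MammU6 alone, the common assays (those found in each of the 12 replicates), quantile normalization or no reference, and 3 higher and 4 lower with either snoRNA alone or both. miR-182 was thus high in the same line as miR-375, where miR-203 was not detected.

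In L-1210, 1 of the 7 tested was higher, 3 were lower and 3 were not called, where 22.5% of all assays were called higher and 45.9% lower. The list's median was above that of all assays (-0.15 against -0.82). In M1, 4 of the 7 tested were lower and 3 were not called, where 44.3% of all assays were called lower, and the list's median was below that of all assays (-1.95 against -0.59). miR-200c was 5.71-fold lower in L-1210 (limma adjusted p = 9.24e-07) and 3.88-fold lower in M1 (limma adjusted p = 1.23e-05). The call was lost in L-1210 with MammU6 alone (log2 -0.77), and in M1 the direction of miR-200c turned with no reference (0.40, not called). miR-200a was 2.39-fold higher in L-1210 (limma adjusted p = 0.0012), but the miR-200a difference was 0.38 with both snoRNAs and -0.38 with snoRNA202 alone, neither of them called. miR-205, detected in both CT-BM replicates with a well, was at least 16.7-fold lower in L-1210 and at least 42.8-fold lower in M1 with the 3 controls. It was not detected in either line, so it entered these counts and medians only through CT-BM. The miR-205 bounds ranged from -5.78 to -1.28 on the log2 scale in L-1210 and from -5.82 to -1.28 in M1 over the other references, with the smallest after quantile normalization. The direction of the list turned in L-1210 with MammU6 alone (4 higher, 1 lower) and quantile normalization (5 higher, 2 lower), and in M1 with quantile normalization (4 higher, 2 lower) and no reference (3 higher, 2 lower).

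The list of miRNAs known from islets and exocrine pancreas held 8 assays, of which 4 (miR-153, miR-216a, miR-216b and miR-217) were not detected in any group. In PYS, 3 of the other 4 were higher than in CT-BM and 1 was lower, where 40.1% of all assays were called higher and 38.7% lower. The median of the 4 was 2.77 against 0.08 for all assays. The split was the same under each of the 7 other references. miR-7a, an abundant islet miRNA, was 9.16-fold higher in PYS (limma adjusted p = 2.50e-08), and miR-7b was 5.09-fold higher. miR-184 was 19.6-fold higher in PYS, where its level was -11.67 ± 0.05 (n = 3). These 3 were high in the line in which miR-375 was highest. In L-1210, 2 of the 4 were lower, where 45.9% of all assays were called lower, and 2 were not called. These 2 were miR-7a at 0.94 and miR-7b at 0.71 on the log2 scale (median of the 4, -1.79, against -0.82 for all assays). The lower ones were miR-184 (-4.30) and miR-204 (-12.34, a bound). miR-204 entered only through its detection in CT-BM. Without it the middle value was 0.71, above that of all assays. miR-184 was 19.6-fold lower in L-1210, where miR-375 was 15.1-fold higher, but after quantile normalization miR-184 was higher too (log2 1.09, called). The Ct of miR-184 in L-1210 was 33.67 to 34.53, near the limit of 35. With a limit of 32 the median of the 4 in L-1210 was -0.76. In M1, 2 of the 4 were higher, 1 was lower and 1 was not called, where 25.2% of all assays were called higher and 44.3% lower. The median of the 4 in M1 was 0.65 against -0.59 for all assays. The L-1210 split was 2 and 2 with MammU6 alone, the common assays or no reference, and 3 higher and 1 lower with quantile normalization. The M1 split was 0 higher and 1 lower with snoRNA202 alone, 1 and 1 with both snoRNAs, and 3 and 1 with quantile normalization or no reference.

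miR-204, which is also abundant in the eye, was highest in CT-BM like miR-203. It came up at a mean Ct of 23.7 in CT-BM and was not detected in any replicate of the 3 lines. In all 3 lines miR-204 therefore entered the counts and medians of the islet list only through CT-BM. It was at least 5183-fold lower in L-1210, at least 13244-fold lower in M1 and at least 4968-fold lower in PYS.

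**Figure D5:**
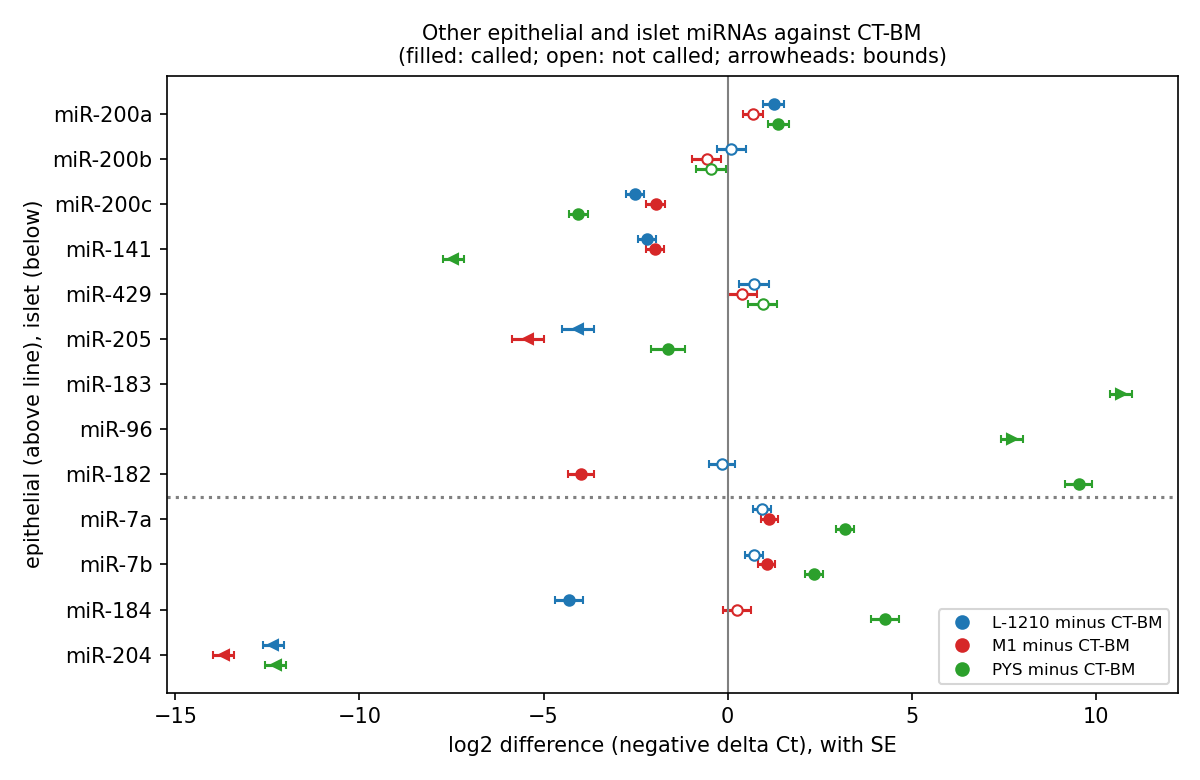
Log2 difference from CT-BM in each line for the tested assays of the epithelial and islet lists; filled points were called, open points were not, and arrowheads are bounds against a group without detection. In PYS miR-182, miR-183 and miR-96 lie far above 0 and miR-200c, miR-141 and miR-204 below it.

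The assays whose levels ran most like those of each miRNA were found by Pearson's r over the replicates, among 258 or 259 mouse-named assays, as a description without a p-value. The replicates fall into 4 groups and share their RNA and controls across assays, so r mostly reflects the 4 group means. For miR-31 the nearest were miR-31* (r = 0.979), miR-467d (r = 0.938) and miR-34a (r = 0.933), over n = 12. miR-467d and miR-34a, a p53 target, were not detected in M1 or PYS, unlike miR-31. For miR-203 they were miR-150 (r = 0.981), let-7g* (r = 0.972) and miR-126-3p (r = 0.972), over n = 11. miR-150 had group means of -1.74 in CT-BM, -7.47 in M1, -11.16 in PYS and -12.52 in L-1210, so it shared with miR-203 the first place of CT-BM and the second of M1. For miR-375 they were miR-132 (r = 0.957), miR-532-5p (r = 0.942) and miR-7a (r = 0.925), over n = 11. miR-132 ran from -8.34 in CT-BM to -4.75 in PYS, a narrower range than that of miR-375.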

How the data were processed

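The members and the lists of miRNAs were chosen with earlier results of these data known. Per the labels, total RNA (mirVana kit) was reverse transcribed, preamplified and run for 40 cycles on an Applied Biosystems 7900HT. The deposited table holds raw Ct values in cycles, 8969 wells from 24 card runs, of which 48.3% were undetermined. The software and threshold settings are not given in the sources used here. Each of the 3 members had 1 well per card run, all on card A. Repeat wells had a median SD of 0.302 cycles on card A, over 12 sets of MammU6 wells, and of 0.114 cycles on card B, over 918 sets. Precision is limited by this spread and by 3 replicates a group.

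Repeat wells were averaged, Ct over 35 was set to 35, and the mean of MammU6, snoRNA135 and snoRNA202 of the same card and replicate was subtracted. limma 3.58.1 (R 4.3.3; lmFit and eBayes, 4 group means, 12 replicates) was fitted over all assays, with p-values adjusted by Benjamini-Hochberg within each comparison. An assay was tested where every replicate of at least 1 of the groups compared was detected. No p-value is given for the 3 members. A fold against a group without detection was taken at the Ct limit and written as at least that fold. Named assays were the 3 members, the other assays of their hairpins, for each line against CT-BM the 4 assays of each list with the largest moderated t, the 3 assays of highest Pearson r with each member, and the markers; a selection is given. Alternatives were other references, Ct limits of 32 and 40, other filters, eBayes with robust and trend settings, a fit restricted to 2 groups, the replicate number as a block and leaving out each replicate. Both snoRNAs without MammU6, and no reference, were added after seeing the data. On simulated data, 53.3% of 2-fold changes and 100% of 8-fold changes were called, and 1.49% of unchanged assays. The rate for 2-fold changes is held down by the rule itself, since such a change lies at its 2-fold minimum. The simulation held 187 assays, all detected, with independent normal noise and no shift of the controls. Its rates do not cover undetected wells or the choice of reference. Tables and figures were made with Python 3.11.15, pandas 2.3.3, numpy 2.4.6 and matplotlib 3.10.9.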

Additional observations from a re-analysis of the deposited data

How the results depend on the processing

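Of 591 values of 23 differences of miR-31, miR-203, miR-375 and miR-31* under 26 alternatives, 581 kept their direction and their side of the calling rule. Many of these values could not move, so the 581 is no measure of robustness. For example, miR-31 in L-1210 minus CT-BM stayed at 1.54 under other Ct limits, filters and eBayes settings and without M1 or PYS replicates. All the exceptions, given next, came from other references or the Ct limit of 32. With snoRNA202 alone, miR-31 in L-1210 minus CT-BM was -0.091 and miR-375 in L-1210 minus M1 was -0.060. The latter was -0.44 after quantile normalization and -0.10 with no reference. Both fell below 2-fold with the 2 snoRNAs, at 0.67 and 0.48, as did miR-31 in PYS minus M1 after quantile normalization (0.94) and miR-31* in PYS minus CT-BM with MammU6 alone (-0.84). At a Ct limit of 32, miR-203 was -0.72 in L-1210 minus M1 and -0.90 in PYS minus M1, since the limit lies nearer its M1 values. Apart from the limits themselves, the cause was not tested. Levels near the limit of 35 cycles, as for miR-203 and miR-31* in groups without detection, are bounds only.

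Without a filter, 473 assays were called in L-1210 minus CT-BM, 487 in M1 minus CT-BM, 349 in L-1210 minus M1 and 401 in PYS minus M1. These counts take in assays detected in neither group, whose values at the limit differ only by the controls. For miR-183 and miR-96 in M1 minus CT-BM this gave -2.36. With detection required in every replicate of both groups, fewer assays were tested and the counts were 148, 137, 174 (PYS minus CT-BM), 103, 153 (PYS minus L-1210) and 138. Under that filter miR-203 and miR-31* had no value against a group without detection. Leaving out 1 replicate changed no call of the 4 assays, and the counts ran from 225 to 229 in L-1210, 215 to 227 in M1 and 277 to 289 in PYS against CT-BM. They ran from 165 to 182 in L-1210 minus M1, 248 to 263 in PYS minus L-1210 and 245 to 252 in PYS minus M1.

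The replicate numbers did not pair the samples: correlations of deviations ran from -0.453 to 0.334 over 187 assays, and the best match had the same number in 6 of 36 cases. With the replicate number as a block, 229, 226 and 283 assays were called in L-1210, M1 and PYS against CT-BM, 173 in L-1210 minus M1, 256 in PYS minus L-1210 and 250 in PYS minus M1, and no call of the 4 assays changed.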
